A study of Mus musculus with 16 samples.

Results

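The 10 genes described here encode proteoglycans and glycoproteins of the extracellular matrix. Decorin (Dcn), biglycan (Bgn), lumican (Lum) and fibromodulin (Fmod) are small leucine-rich proteoglycans. Fibronectin (Fn1) is an adhesive glycoprotein, fibrillin 1 (Fbn1) builds microfibrils, and osteonectin (Sparc), periostin (Postn), tenascin C (Tnc) and thrombospondin 1 (Thbs1) are matricellular proteins. They were chosen by gene symbol, all 10 were among the 22322 genes of both deposited tables, and all 10 passed the filter on low counts in each tissue.

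Samples came from DIO (diet-induced obese) mice that received halofuginone at 100 μg/kg or its vehicle by intraperitoneal injection every 2 days for 8 weeks. RNA sequencing after poly(A) selection covered 10 liver libraries, 5 per group, and 6 libraries of white adipose tissue, 3 per group. Obesity induced by diet is thus shared by all 4 groups, and no lean group was analysed here. The labels write the vehicle groups as HFD and the treated groups as H100, and they give no strain, sex, age or fat depot. They do not say that replicates are separate animals, so p-values measure only the spread between these samples, which may be technical.

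Matrix proteoglycans and glycoproteins are secreted mainly by fibroblasts, pericytes and, in the liver, stellate cells. The small leucine-rich proteoglycans bind collagen fibrils and shape their diameter and spacing. Matricellular proteins act less as scaffold than as signals between matrix and cell, and several of them are induced by TGF-beta and during wound repair. Fibronectin differs from the others in the liver, where hepatocytes make the soluble form found in plasma. Halofuginone inhibits prolyl-tRNA synthetase, the activity that charges tRNA with proline, and is known as an inhibitor of matrix production.

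The liver libraries summed to between 20309956 and 31980683 counts, and the fat libraries to between 17070614 and 21387799. Levels are given as CPM, that is, counts adjusted for library size and for composition by TMM factors. The limit that 3 counts set on an undetected gene was at most 0.1477 CPM in liver and 0.1757 CPM in fat, for counting error only. Summed hepatocyte markers were high in every liver library, with 127529.2 to 141982.5 CPM in vehicle livers and 49878.3 to 119692.9 CPM in treated livers. Vehicle fat replicate 3 stood apart. Its summed adipocyte markers were 13255.4 CPM against 22330.0 to 28265.8 CPM in the other fat libraries, its epididymis markers were 76.2 CPM against 0.837 to 18.7 CPM, and its endothelial markers were 688 CPM against 1345.4 to 1876.9 CPM. Halofuginone liver replicate 1 was nearest to vehicle in summed hepatocyte markers and in summed fibroblast and stellate markers. Results in fat are therefore given with and without vehicle replicate 3, and calls in liver also without halofuginone replicate 1.

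The first comparison set halofuginone against vehicle within the liver. Expression of 5 of the 10 genes fell, by 5.78-fold for Thbs1, 4.30-fold for Tnc, 1.69-fold for Postn, 1.49-fold for Sparc and 1.36-fold for Bgn. Calls here require an adjusted p under 0.05 (edgeR quasi-likelihood, Benjamini-Hochberg over the 12311 genes tested). Of all those genes 23.2% were called and 10.5% were called lower. All 10 log2 fold changes were below 0, with a median of −0.52, beside a median of 0.02 over all genes tested. No gene of the 10 was called higher. In 3 of them, Sparc, Postn and Thbs1, every halofuginone library lay below every vehicle library, beside 6.55% of all genes tested with that arrangement. Without halofuginone replicate 1 the treated libraries lay below every vehicle library in 5 genes, beside 16.1% of all genes tested. In that fit 6 of the 10 were called lower, beside 21.6% of all genes, with Dcn as the added gene.

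**Figure D1:**
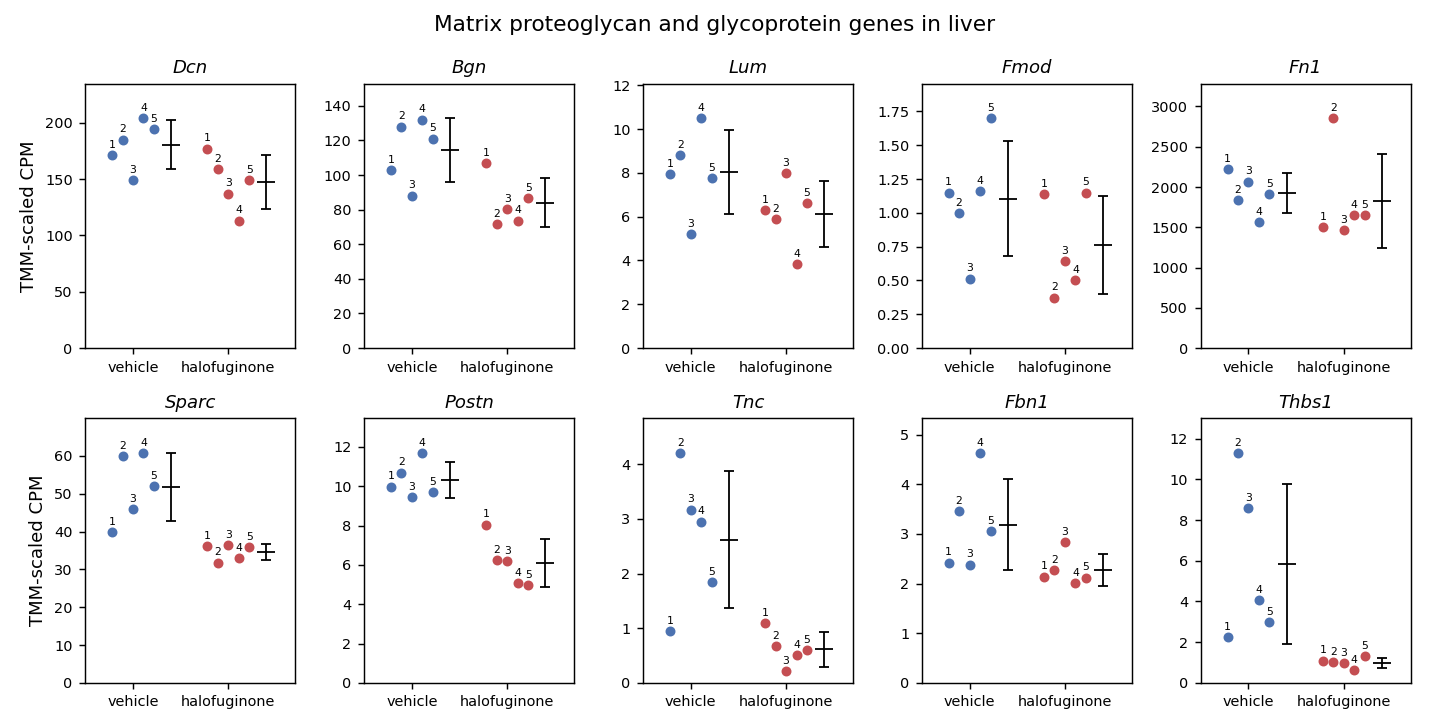
Liver expression of the 10 genes, one panel per gene. Points are libraries, numbered by replicate, the vertical axis is TMM-scaled CPM starting at 0 with its own range in each panel, and the black bars are the group mean ± SD (n = 5). Sparc, Postn and Thbs1 show no overlap between vehicle and halofuginone, and Fn1 has 1 halofuginone library at 2855.5 CPM, far above the other 4.

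Thrombospondin 1 (ENSMUSG00000040152), a matricellular glycoprotein that can activate latent TGF-beta, showed the largest fold change of the 10 in liver. It measured 2.26, 11.3, 8.58, 4.07 and 2.98 CPM in vehicle replicates 1 to 5 and 1.09, 1.01, 0.966, 0.617 and 1.30 CPM in halofuginone replicates 1 to 5. Vehicle libraries were widely spread, while the halofuginone libraries sat close together and all below the lowest vehicle value. The mean went from 5.83 ± 3.91 to 0.997 ± 0.249 CPM (SD, n = 5 and 5), and the log2 fold change was −2.53 (SE 0.45, edgeR adjusted p = 0.00633). The counts behind these values were low, 57 to 225 per vehicle library and 16 to 35 per halofuginone library. An exact two-sided permutation test over the libraries gave p = 0.00794, the smallest that 5 against 5 can give.

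Tenascin C (ENSMUSG00000028364), a large hexameric glycoprotein of remodelling tissue, was the next largest. It measured 0.95, 4.21, 3.17, 2.95 and 1.84 CPM in the vehicle livers and 1.09, 0.671, 0.215, 0.502 and 0.596 CPM under halofuginone. Vehicle replicate 1 lay within the range of the treated livers, and 4 of the 5 treated libraries were below all vehicle libraries. The mean went from 2.62 ± 1.26 to 0.615 ± 0.318 CPM (SD, n = 5 and 5), and the log2 fold change was −2.10 (SE 0.44, edgeR adjusted p = 0.0105). Counts were between 24 and 84 per vehicle library and between 6 and 22 per halofuginone library, so single values carry a large counting error.

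Periostin (ENSMUSG00000027750), which binds collagen and integrins, measured 9.98, 10.7, 9.46, 11.7 and 9.70 CPM in the vehicle livers. The treated livers measured 8.05, 6.23, 6.19, 5.09 and 4.99 CPM, all below the vehicle range, with replicate 1 the nearest to it. The log2 fold change was −0.76 (SE 0.14, edgeR adjusted p = 0.00719). In 1 fit of all 4 groups, where liver and fat share 1 estimate of the spread, this call was lost (adjusted p = 0.144, against 1.9e-05 to 0.144 over all alternatives).

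Osteonectin (Sparc, ENSMUSG00000018593), a protein that binds collagen and calcium, measured 39.8, 59.9, 45.9, 60.8 and 52.1 CPM in vehicle. Under halofuginone it measured 36.2, 31.8, 36.5, 32.9 and 35.9 CPM. The treated values lay close together, at 34.7 ± 2.13 CPM against 51.7 ± 8.99 CPM in vehicle (SD, n = 5 and 5), and the groups did not overlap. The log2 fold change was −0.58 (SE 0.12, edgeR adjusted p = 0.0105). This call was kept in every alternative that was run, with adjusted p from 0.000288 to 0.0449.

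Among the small leucine-rich proteoglycans, biglycan (ENSMUSG00000031375) was called and the other 3 were not. Biglycan measured 103, 128, 88.1, 132 and 121 CPM in vehicle and 107, 71.7, 80.5, 73.7 and 86.8 CPM under halofuginone. Halofuginone replicate 1 lay inside the vehicle range and the other 4 treated libraries lay below it. Its log2 fold change was −0.45 (SE 0.14, edgeR adjusted p = 0.0449), close to the threshold. The call was kept in 5 of 19 alternatives, whose adjusted p ran from 0.00382 to 0.154. Of the 10 fits that leave out 1 liver library, only those without halofuginone replicate 1 (adjusted p = 0.00382) and without vehicle replicate 3 kept it. With the replicate number as a block its adjusted p was 0.0884, and 4 of the 10 genes were called lower, beside 8.21% of all genes.

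Decorin (ENSMUSG00000019929), the most abundant of the 4 proteoglycans in liver, measured 149 to 204 CPM in vehicle and 113 to 177 CPM under halofuginone. The groups overlapped, and the log2 fold change of −0.30 (edgeR SE 0.13, adjusted p = 0.123) was not called. Without halofuginone replicate 1 the value was −0.40 and was called (adjusted p = 0.0209, against 0.0209 to 0.469 over all alternatives). Lumican (ENSMUSG00000036446), with 8.04 ± 1.90 CPM in vehicle livers and 6.12 ± 1.51 CPM in treated ones (SD, n = 5 and 5), overlapped widely (log2 fold change −0.39, SE 0.21, edgeR adjusted p = 0.186). Fibromodulin (ENSMUSG00000041559) was low, at 1.10 ± 0.426 and 0.763 ± 0.365 CPM (SD, n = 5 and 5), and its log2 fold change of −0.56 (edgeR SE 0.37, adjusted p = 0.282) was within the spread between libraries.

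Fibrillin 1 (ENSMUSG00000027204) measured 2.38 to 4.63 CPM in vehicle and 2.01 to 2.83 CPM under halofuginone. Although 4 of the 5 treated libraries lay below the vehicle range, the log2 fold change of −0.49 (edgeR SE 0.20, adjusted p = 0.101) was not called. Fibronectin (ENSMUSG00000026193) was by far the most abundant of the 10 in liver and differed by less than the spread between replicates. It measured 2225.2, 1833.6, 2067.5, 1566.8 and 1910.1 CPM in vehicle and 1504.4, 2855.5, 1465.0, 1655.1 and 1654.8 CPM under halofuginone. Replicate 2 was the highest liver library of either group, while 2 treated libraries were below all vehicle ones. The log2 fold change was −0.07 (SE 0.21, edgeR adjusted p = 0.821), and −0.30 without that library (adjusted p = 0.147, against 0.147 to 0.992 over all alternatives).

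Scaling bears on these liver values. With library size alone in place of TMM factors, the median over all genes moved by 0.16 on the log2 scale and the share of called genes that were higher went from 54.7% to 76.9%. The median of the 10 genes was then −0.37 in place of −0.52, and Fn1 changed sign to 0.09. On the deposited FPKM (values divided by gene length and depth), 4 of the 10 (Fmod, Tnc, Fbn1 and Thbs1) did not reach the minimum of 1 FPKM. Of the 6 tested there by limma, 2 (Sparc and Postn) were called lower, beside 7.93% of all genes in that fit.

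The starts of these genes were read for short motifs as a description of what the members that fell in liver share. RefSeq promoters (GRCm38.p6) were found for 6 of the 10 genes, and none for Dcn, Lum, Fn1 and Thbs1. The 250 bases before the start are shown for the 4 genes that were called lower in liver and had an entry, with motif matches in capitals, and for a gene with 2 starts the one with a match and no other start of the gene inside the window.
Sparc, chr11:55420081-55420330, minus strand: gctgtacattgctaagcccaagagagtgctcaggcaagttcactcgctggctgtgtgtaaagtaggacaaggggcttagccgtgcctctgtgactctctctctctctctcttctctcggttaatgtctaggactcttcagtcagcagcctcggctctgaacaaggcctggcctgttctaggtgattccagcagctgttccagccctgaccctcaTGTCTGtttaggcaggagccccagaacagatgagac
Postn, chr3:54360857-54361106, plus strand: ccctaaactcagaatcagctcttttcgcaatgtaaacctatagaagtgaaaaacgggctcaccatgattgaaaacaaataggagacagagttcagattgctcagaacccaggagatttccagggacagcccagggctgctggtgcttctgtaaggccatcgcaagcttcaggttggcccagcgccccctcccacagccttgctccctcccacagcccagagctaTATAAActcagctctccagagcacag
Tnc, chr4:64047016-64047265, minus strand: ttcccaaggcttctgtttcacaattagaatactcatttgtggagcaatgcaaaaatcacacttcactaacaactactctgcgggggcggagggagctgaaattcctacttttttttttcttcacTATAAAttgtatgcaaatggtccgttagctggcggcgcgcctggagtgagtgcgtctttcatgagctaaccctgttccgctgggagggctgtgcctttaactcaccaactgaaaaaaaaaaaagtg
Bgn, chrX:73483351-73483600, plus strand: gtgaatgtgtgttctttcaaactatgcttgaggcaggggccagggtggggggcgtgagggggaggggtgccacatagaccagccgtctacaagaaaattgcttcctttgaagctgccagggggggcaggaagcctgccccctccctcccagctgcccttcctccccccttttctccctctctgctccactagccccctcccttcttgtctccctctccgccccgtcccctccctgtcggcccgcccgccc
Both strands were searched for the core promoter element TATAAA, the AP-1 site TGANTCA, the ATF4 site TGATGNAA, the SMAD site CAGACA and the CArG box of serum response factor. In Postn, TATAAA lies 26 to 21 bases before the start. The Tnc window holds TATAAA 126 to 121 bases before the start shown. In Sparc the capitals mark CAGACA read on the other strand, 36 to 31 bases before the start. No motif of the 5 was matched in the Bgn window. Among 32526 promoters of the same length, 12.3% held TATAAA, 17% CAGACA, 6.73% TGANTCA, 3.39% TGATGNAA and 1.48% the CArG box, so such matches are common. Fmod, Fbn1 and the other start of Postn held none of the 5, and the second start of Tnc held TATAAA and CAGACA. The windows differ in base composition, with 64.4% G and C in Bgn and 44.8% in the Tnc window shown, beside a median of 52.4% over all promoters.

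Other genes of the matrix in liver were taken from lists written for the pathway. Of 14 tested matricellular and soluble glycoproteins outside the 10, 6 were called lower and 0 higher in edgeR, with a median log2 fold change of −0.67. Among them were Ccn2, a connective tissue growth factor induced by TGF-beta (−1.08, SE 0.18, edgeR adjusted p = 0.00564), the follistatin-like Fstl1 (−1.08, SE 0.25, adjusted p = 0.0146) and tenascin X, Tnxb (−0.97, SE 0.24, adjusted p = 0.0194). Over the 21 matricellular and soluble glycoproteins listed, summed expression was 1997.2 to 2124.9 CPM in vehicle and 2179.0 to 3588.0 CPM under halofuginone. Most of that sum was Vtn, which was higher in every treated library but not called (0.45, SE 0.16, edgeR adjusted p = 0.0628). Vtn averaged 1801.0 CPM in vehicle and 2457.1 CPM under halofuginone. Of 14 elastic fibre and fibulin genes 5 were called lower and 0 higher, including Fbln2 (−0.98), Ltbp3 (−0.88) and Fbln5 (−0.78). Of 15 laminin, nidogen and related basement membrane genes 6 were called lower, such as Lama2 (−1.07), and 1 higher, Fras1 (1.30). These 3 lists had medians of −0.67, −0.47 and −0.27, beside 0.02 over all genes, of which 10.5% were called lower.

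The remaining liver lists moved in both directions. Of all 12311 genes tested 1558 were called higher and 1292 lower (10.5%). Matrix receptors and genes of glycosaminoglycan synthesis were called at smaller shares than all genes (23.2%). Of 6 other small leucine-rich proteoglycans tested, 1 fell, osteomodulin Omd (−2.24, SE 0.73, edgeR adjusted p = 0.0471), and 1 rose, tsukushi Tsku (1.20, SE 0.31, adjusted p = 0.0213). Tsukushi is made by hepatocytes, and its mean was 118.0 CPM in vehicle and 272.0 CPM in treated livers. Of 6 other proteoglycans, perlecan Hspg2 fell (−0.52) and the link protein Hapln4 rose (1.41). Matrix receptors were 2 higher (Itga5, 0.77, and Itgb5, 0.38) and 2 lower of 27. One of those lower was Cd36 (−1.73, SE 0.21, edgeR adjusted p = 0.00158), a thrombospondin receptor that is also a fatty acid transporter. Among 27 genes of glycosaminoglycan synthesis 2 rose, Chpf (0.74) and Slc35d1 (0.72), and 3 fell. The largest fall was in Ugdh (−1.45, SE 0.24, edgeR adjusted p = 0.00564), the enzyme that makes UDP-glucuronate for glycosaminoglycans and for glucuronidation.

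Markers of matrix-producing cells were set beside these values. Summed fibroblast and stellate markers were 296 to 331 CPM in vehicle and 198 to 290 CPM under halofuginone, with replicate 1 at 290 CPM. Of 12 tested markers 4 were called lower, namely Vim (−0.89), Pdgfrb (−0.64), Reln (−0.56) and Dpp4 (−0.55), beside 10.5% of all genes. Dpp4, which averaged 114 CPM in vehicle livers and 78.1 CPM in treated livers, was the most abundant of them and held the largest share of the drop in the sum. Which liver cells the Dpp4 transcripts came from was not tested. Lrat, which defines vitamin A-storing stellate cells, measured 15.4 and 13.6 CPM (log2 fold change −0.18, SE 0.13, edgeR adjusted p = 0.334), and Des, Hgf, Ngfr, Cygb and Pdgfra were within 0.10 of 0 on the log2 scale. The smooth muscle genes Tagln (−1.59), Acta2 (−0.71) and Myh11 (−0.56) were called lower, 3 of 4 tested, with sums of 10.4 to 15.2 CPM in vehicle and 5.37 to 8 CPM under halofuginone. Summed macrophage markers overlapped, at 471 to 663 and 481 to 835 CPM. Summed adipocyte markers were 144 to 220 CPM in vehicle and 69.1 to 161 CPM under halofuginone. Of 5 tested, 3 were called lower without overlap, namely Cfd (8.02 to 30.5 CPM in vehicle and at most 0.0746 CPM under halofuginone), Fabp4 (20.7 and 6.66 CPM on average) and Lipe (17.8 and 13.4 CPM). Adipoq, Plin1, Lep and Retn, the other 4 of the list and those most particular to adipocytes, were at 3 counts or fewer in every liver library. The hepatocyte sum was mostly Alb (94153.8 CPM on average in vehicle and 51781.1 CPM under halofuginone, edgeR adjusted p = 0.0742). Of 9 hepatocyte markers 2 were called lower and 1 higher, Tat (662 and 2098.5 CPM on average, log2 fold change 1.66, edgeR adjusted p = 0.00827). In such bulk samples fewer cells of a type and less RNA per cell cannot be told apart. The part of these cell markers, and of the lower hepatocyte sum, in the change of the 10 genes was not tested.

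**Figure D2:**
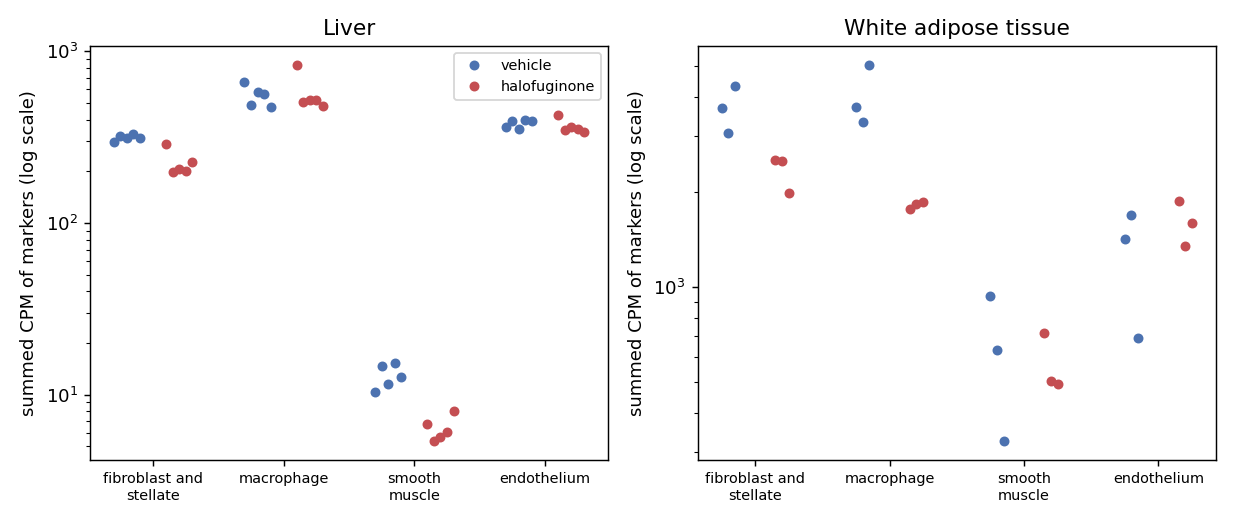
Summed CPM of marker lists in liver (left) and white adipose tissue (right), on a log axis that differs between the panels. Each point is 1 library. Summed fibroblast and stellate markers are lower in every treated library in both tissues. In liver the gap is narrow for halofuginone replicate 1 (290 CPM against at least 296 CPM in vehicle). Dpp4 holds the largest share of the liver drop, and which liver cells its transcripts came from was not tested. Summed macrophage markers are lower in fat (1770.5 to 1854.4 CPM against 3319.3 to 5048.7 CPM) and overlap in liver.

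In white adipose tissue, 8 of the 10 genes had a log2 fold change below 0, with a median of −1.14 beside 0.01 over the 14030 genes tested. No gene of the 10 was called by edgeR, and neither was any gene of the table (0%), where the smallest adjusted p was 0.0887. At an unadjusted p under 0.05, 7 of the 10 were lower and 0 higher, beside 7.91% of all genes that were lower by that rule. In 6 genes, Bgn, Fmod, Fn1, Sparc, Tnc and Fbn1, all 3 treated libraries lay below all 3 vehicle libraries, an arrangement found in 10.4% of all genes tested. The number was also 6 without vehicle replicate 3, where 17.2% of all genes had that arrangement. DESeq2 called these 6 genes lower, beside 3.21% of all genes. A fit of all 4 groups together called 3 lower (Bgn, Sparc and Fbn1), beside 1.66% of all genes. With 3 against 3 libraries an exact permutation test cannot go below p = 0.1, which is the value that each of the 6 reached.

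**Figure D3:**
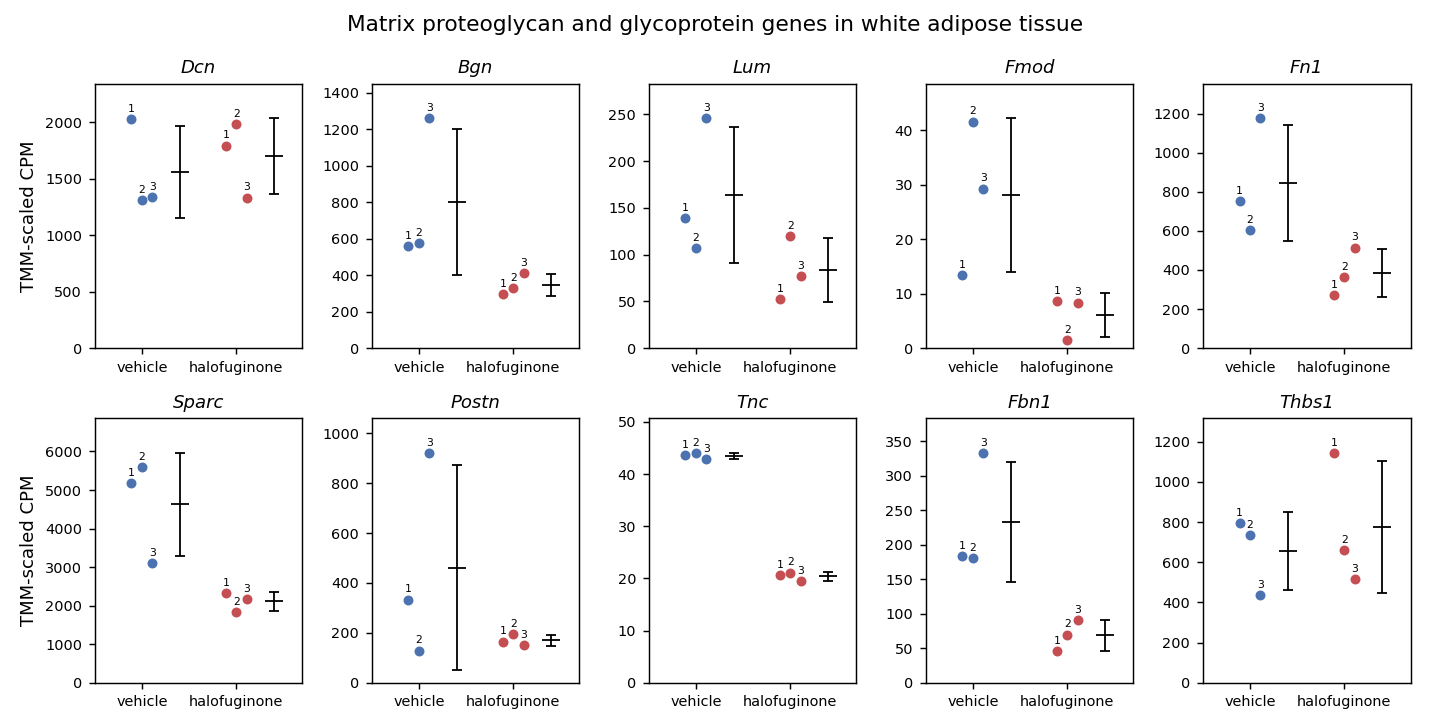
White adipose tissue expression of the 10 genes, drawn as for the liver (n = 3 and 3). Bgn, Fmod, Fn1, Sparc, Tnc and Fbn1 do not overlap between the groups, vehicle replicate 3 is the highest library for Bgn, Lum, Fn1, Postn and Fbn1, and Dcn and Thbs1 overlap widely.

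Tenascin C showed the least spread. It measured 43.6, 44.0 and 42.9 CPM in vehicle replicates 1 to 3 and 20.6, 21.1 and 19.5 CPM in halofuginone replicates 1 to 3. Libraries of a group were within 2 CPM of each other and the groups lay far apart, vehicle replicate 3 included. The log2 fold change was −1.09 (SE 0.13, edgeR adjusted p = 0.0954). DESeq2 gave an adjusted p of 8.33e-12, against 8.33e-12 to 0.431 over all alternatives. Without vehicle replicate 3 the log2 fold change was −1.10.

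Sparc, the most abundant of the 10 in vehicle fat, measured 5182.3, 5597.0 and 3107.4 CPM in vehicle. Under halofuginone it measured 2327.7, 1838.7 and 2179.6 CPM, so even the low vehicle replicate 3 was above every treated library. The log2 fold change was −1.13 (SE 0.27, edgeR adjusted p = 0.188, DESeq2 adjusted p = 0.0027, and 0.0027 to 0.576 over all alternatives). Without vehicle replicate 3 it was −1.35.

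Postn measured 333, 129 and 921 CPM in vehicle and 165, 194 and 151 CPM under halofuginone. The treated values lay inside the vehicle range, and vehicle replicate 3 set the vehicle mean of 461 ± 411 CPM (SD, n = 3). Its log2 fold change of −1.44 (edgeR SE 0.64, adjusted p = 0.391) was −0.45 without vehicle replicate 3 and −1.88 without vehicle replicate 2.

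Thbs1, which fell in liver, measured 796, 736 and 435 CPM in vehicle fat and 1144.4, 662 and 518 CPM in treated fat. The groups overlapped, and the log2 fold change was 0.24 (SE 0.36, edgeR adjusted p = 0.821). It was −0.15 without halofuginone replicate 1 and 0.02 without vehicle replicate 3, so its sign rests on single libraries.

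The small leucine-rich proteoglycans differed among themselves in fat. Fmod measured 13.4, 41.6 and 29.3 CPM in vehicle and 8.61, 1.49 and 8.36 CPM under halofuginone, with vehicle replicate 1 the nearest to the treated values. Its log2 fold change of −2.20 (edgeR SE 0.68, adjusted p = 0.272, DESeq2 adjusted p = 0.028, and 0.028 to 0.576 over all alternatives) was −2.16 without vehicle replicate 3. Bgn measured 560, 577 and 1261.6 CPM in vehicle and 298, 330 and 412 CPM under halofuginone. All treated libraries were below the vehicle ones, and vehicle replicate 3 was the highest. Its log2 fold change of −1.21 (edgeR SE 0.35, adjusted p = 0.249, DESeq2 adjusted p = 0.0316, and 0.0289 to 0.622 over all alternatives) was −0.71 without that library. Lum measured 139, 107 and 246 CPM in vehicle and 52.3, 120 and 77.3 CPM under halofuginone, with an overlap through halofuginone replicate 2. It differed by −0.98 (SE 0.40, edgeR adjusted p = 0.361), or by −0.57 without vehicle replicate 3. Dcn overlapped widely, with 2024.6, 1308.6 and 1337.2 CPM in vehicle and 1792.1, 1981.4 and 1331.7 CPM under halofuginone (log2 fold change 0.13, SE 0.25, edgeR adjusted p = 0.870, and 0.03 without vehicle replicate 3).

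Fbn1 measured 184, 181 and 333 CPM in vehicle and 46.0, 69.9 and 90.6 CPM under halofuginone, with no overlap. The log2 fold change was −1.76 (SE 0.35, edgeR adjusted p = 0.159, DESeq2 adjusted p = 0.000207, and 0.000207 to 0.518 over all alternatives) and −1.41 without vehicle replicate 3. Fn1 measured 753, 603 and 1176.7 CPM in vehicle and 271, 364 and 514 CPM under halofuginone, again with no overlap. Its log2 fold change was −1.14 (SE 0.33, edgeR adjusted p = 0.249, DESeq2 adjusted p = 0.0328, and 0.0328 to 0.622 over all alternatives) and −0.82 without vehicle replicate 3. Summed hepatocyte markers in fat overlapped (155 to 774 CPM in vehicle, 161 to 1043.2 CPM in treated fat). Nearly all of that sum was Cyp2e1 (462 and 721 CPM on average), while Alb, the most abundant of them in liver, measured 1.62 and 3.43 CPM.

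As edgeR called no gene of the fat table, the listed pathway genes were counted at an unadjusted p under 0.05. Of all genes tested in fat 7.91% were lower by that rule. By that measure 8 of 21 matricellular and soluble glycoproteins were lower and 0 higher, with a list median of −0.55. They included Fstl1, with 404.0 ± 64.2 CPM in vehicle fat and 152.0 ± 7.85 CPM in treated fat (SD, n = 3 and 3, log2 fold change −1.41), and dermatopontin, Dpt, a decorin-binding protein (−1.10). Fibulin and elastic fibre genes were lower in 5 of 18 and higher in 0, with a median of −0.50, among them the microfibril-associated Mfap5 (−1.38) and Mfap4 (−1.15). Of 29 receptors 6 were lower and 0 higher, led by the glypicans Gpc1 (−1.95, SE 0.20, edgeR adjusted p = 0.0954) and Gpc6 (−1.57) and by the syndecan Sdc1 (−1.24). Basement membrane genes were lower in 4 of 14, with Nid2 (−1.03) and Lama2 (−0.88), and other proteoglycans in 2 of 9, with Ncan (−2.37). Other small leucine-rich proteoglycans were lower in 1 of 8, Ecm2 (−0.72). In glycosaminoglycan synthesis 2 of 27 were lower, Chst3 (−1.06) and Chpf (−0.43), and 1 was higher, B3gat3 (0.57). The share that was lower in this list was near that of all genes. Chpf thus rose in liver and had a negative value in fat, a difference that was not tested.

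Other cell markers also differed in fat. Summed fibroblast markers were 3082.1 to 4338.3 CPM in vehicle and 1977.9 to 2516.6 CPM under halofuginone, most of it Vim (−0.77, edgeR adjusted p = 0.272). Pi16, a marker of adventitial fibroblasts, differed by −1.60 (edgeR adjusted p = 0.236), while Pdgfra and Pdgfrb each differed by −0.24 and Cygb by 0.28. Macrophage markers were lower at an unadjusted p under 0.05 in 10 of 11 tested, beside 7.91% of all genes. Their sums were 3319.3 to 5048.7 CPM in vehicle and 1770.5 to 1854.4 CPM under halofuginone. Clec4f was at 3 counts or fewer in every fat library. The part of macrophages and fibroblasts in the lower values of the 10 genes was not tested.

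The drug effect was next compared between the tissues by subtracting the liver effect from the fat effect in a joint fit of the 16 libraries. None of the 10 differed at an adjusted p under 0.05, beside 0.949% of all 14853 genes tested, while DESeq2 called 2 (Thbs1 and Fbn1), beside 4.84% of all genes. At an unadjusted p under 0.05, 5 of the 10 differed, beside 15.7% of all genes. Of these, Bgn, Fmod, Fn1 and Fbn1 had the more negative value in fat, and Thbs1 had it in liver. The contrast for Thbs1 was 2.75 (SE 0.64, edgeR adjusted p = 0.0532), with adjusted p from 0.00187 to 0.121 over all alternatives. It was called without halofuginone liver replicate 1 (0.0263), without vehicle liver replicate 1 (0.0434) and without halofuginone fat replicate 3 (0.0466). Fbn1 differed by −1.28 (SE 0.37, edgeR adjusted p = 0.103, DESeq2 adjusted p = 0.0412, and 0.0412 to 0.219 over all alternatives), Fn1 by −1.08 (SE 0.39, adjusted p = 0.19) and Fmod by −1.63 (SE 0.76, adjusted p = 0.309). Bgn differed by −0.76 (SE 0.34, adjusted p = 0.28) and by −0.30 without vehicle fat replicate 3. Postn differed by −0.69 (SE 0.54, adjusted p = 0.589) and turned to 0.28 without that library.

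**Figure D4:**
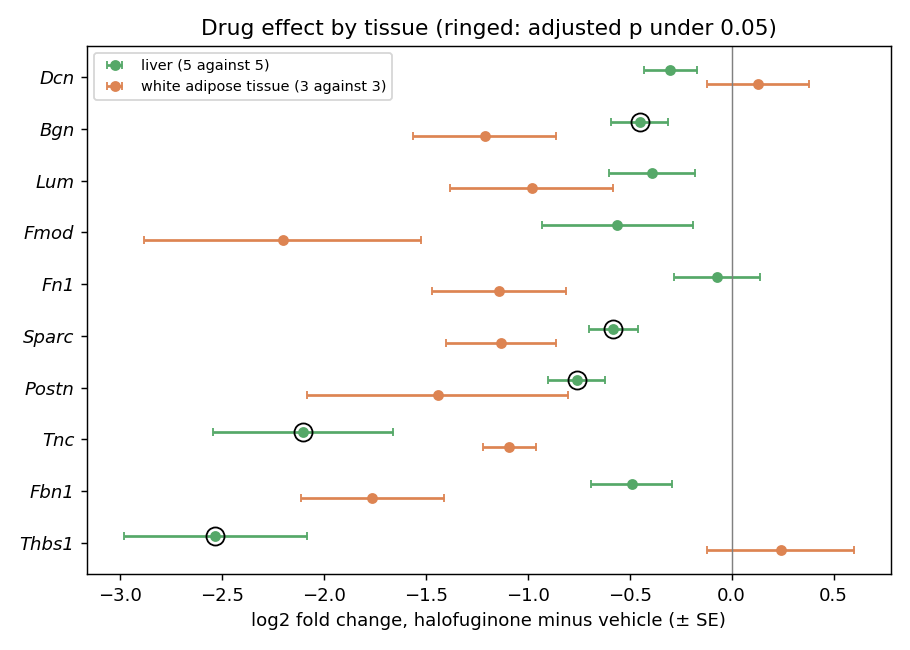
Log2 fold change under halofuginone for each gene in liver (green) and white adipose tissue (orange), with bars of ± 1 SE from edgeR and rings around calls at an adjusted p under 0.05. Rings stand on 5 liver values, and the gap between tissues is widest for Thbs1, at −2.53 in liver and 0.24 in fat.

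Without drug, the same genes were far more abundant in fat than in liver, with fibronectin the exception. In the fit of all 16 libraries 9 of the 10 were called higher in vehicle fat, beside 40.9% of all genes, and 1 was called lower, Fn1, beside 31.5%. The largest differences on the log2 scale were those of Thbs1 (5.69, SE 0.46), Sparc (5.35, SE 0.22) and Fbn1 (5.03, SE 0.27). Postn (4.32), Fmod (3.51), Lum (3.19) and Tnc (2.92) followed, and Dcn (1.96) and Bgn (1.65) differed least. Fn1 differed by −2.34 (SE 0.31), or by −1.15 with library size alone, under which the median of all genes moved by 1.19 and the share of calls that were higher went from 56.5% to 86.3%. All 10 calls and their directions were the same in the 21 alternatives run. Tissue cannot be told apart from the table in which each tissue was deposited.

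Levels of different genes were compared on the deposited FPKM, which divides by gene length. In vehicle liver the order was led by Fn1 at 239 ± 27.8 FPKM, then Dcn at 97.6 ± 13.9, Bgn at 45.0 ± 8.03 and Sparc at 22.1 ± 3.89 FPKM (SD, n = 5). The ranges of these 4 did not overlap. Postn (3.45 FPKM) and Lum (3.13 FPKM) overlapped each other, as did neighbours among Thbs1 (0.934), Tnc (0.356), Fmod (0.338) and Fbn1 (0.306 FPKM). In treated liver the first 4 kept that order, and Thbs1 (0.182 FPKM) and Tnc (0.094 FPKM) had the lowest means. The ranges of neighbours among Fmod (0.254), Fbn1 (0.246), Thbs1 and Tnc overlapped there.

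Vehicle fat had another order. Sparc led with 2079.9 ± 654 FPKM, followed by Dcn at 865 ± 226 and Bgn at 320 ± 148 FPKM (SD, n = 3). Neighbours from Bgn through Postn (150), Fn1 (119), Thbs1 (110) and Lum (64.8 FPKM) overlapped. Fbn1 (22.9 FPKM) stood apart from its neighbours, while Fmod (8.85) and Tnc (6.04 FPKM) overlapped. In treated fat Dcn (988 FPKM) and Sparc (975 FPKM) overlapped at the top, so decorin transcripts were then about as abundant per length as those of Sparc.

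**Figure D5:**
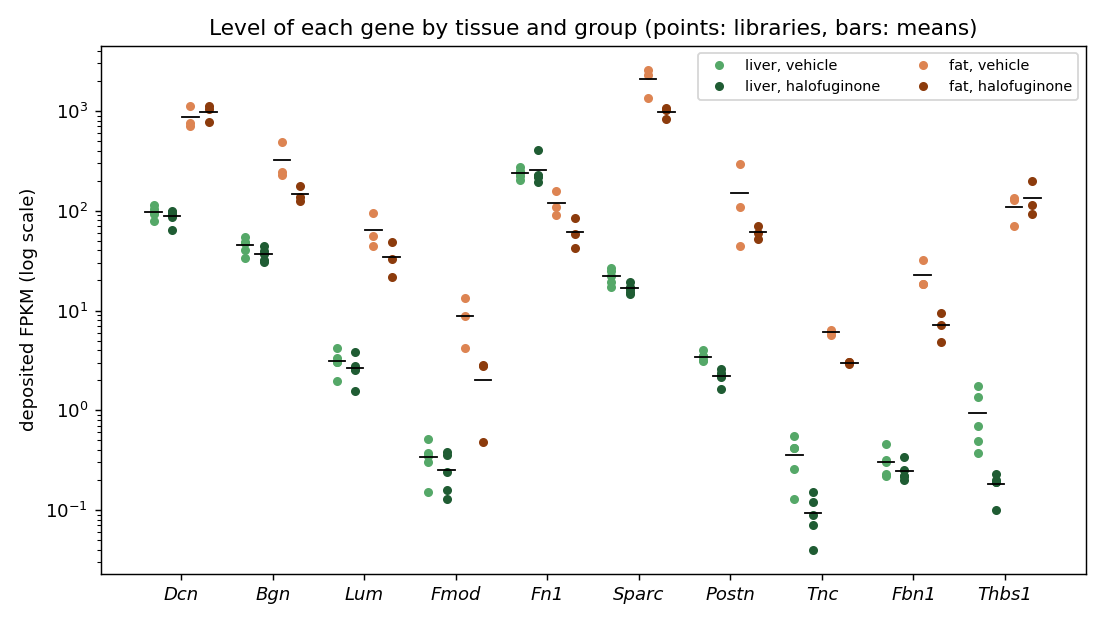
Deposited FPKM of each gene on a log axis, by tissue and group. Points are libraries and bars are group means. Fn1 leads in liver (239 FPKM in vehicle) and Sparc in vehicle fat (2079.9 FPKM), and every gene but Fn1 is higher in fat.

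The libraries can also be read across the 10 genes. Relative to the vehicle mean of each gene, the median over the 10 on the log2 scale was −0.35, −0.67, −0.49, −0.80 and −0.44 in halofuginone liver replicates 1 to 5. Of the 10 genes 5, 7, 7, 9 and 7 lay below the vehicle range in these libraries. In halofuginone fat the medians were −1.19, −1.10 and −1.02, and 7, 6 and 7 genes lay below the vehicle range. The values of replicate 1 in liver were thus the nearest to vehicle, and the 3 treated fat libraries were alike.

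Genes outside the set whose profile was closest to the median profile of the 10 were found by the mean absolute difference of log2 CPM over the libraries of a tissue. Over 6 fat libraries the closest were Rnf150 (0.0666), Ptgfrn (0.0792), Col5a2 (0.0797), a fibrillar collagen chain, Fap (0.081), a protease of activated fibroblasts, and Evl (0.0854), beside a median of 0.729 over 10952 genes. Over 10 liver libraries they were Pam (0.0807), Pmpcb (0.0873), Immt (0.0895), Sod3 (0.0915), an extracellular superoxide dismutase, and Thap12 (0.0945), beside a median of 0.405 over 8817 genes. The liver median profile is a shallow one, and Bgn (0.0848) and Sparc (0.086) followed it while Tnc (0.981) and Thbs1 (1.26) were far from it.

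Because the drug acts on the charging of proline tRNA, the share of proline codons in the longest coding sequence of each gene is given as a description. It was 7.98% in Fmod, 7.75% in Fn1, 7.53% in Sparc and 6.23% in both Bgn and Fbn1. Dcn had 5.93%, Thbs1 5.81%, Lum 5.62%, Tnc 5.02% and Postn 3.94%, beside a median of 5.28% over 21535 genes. The genes with the largest log2 fold changes in liver, Thbs1 and Tnc, had more proline codons than 59.1% and 45.1% of all genes.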

How the data were processed

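Poly(A) RNA of 16 libraries was measured. Counts and FPKM were deposited by the authors as 1 table per tissue, per the file headers, with 0 unmapped sample columns. The deposited counts are whole numbers, but 1 to 31 genes per library pair a count of 0 with some FPKM, so rounding of estimates is possible. FPKM was scaled by the authors for gene length and library size, per the file headers. Per the submitters' processing notes, build mm39 and fastp 0.18.0, Bowtie2 2.2.8, HISAT2, StringTie 1.3.1 and RSEM were used, with no role given. Strand, annotation and duplicate handling are not given in the sources used here. Symbols came from a gene name table that held 22267 of the 22322 identifiers. No mm39 genome was used here, so genes have no coordinates, and promoters (RefSeq, GRCm38.p6) have that build's. Proline codons came from GENCODE M21 and were added after seeing the data.

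Separate fits were made for liver and for fat in R 4.3.3 with edgeR 4.0.16, using filterByExpr, TMM, glmQLFit and two-sided glmQLFTest, and calls at a Benjamini-Hochberg adjusted p under 0.05. The tissue contrast used 1 fit of 16 libraries, taken as independent, although the labels leave unsaid whether liver and fat came from the same animals. Standard errors were taken from the log2 fold change and the F statistic (its size over the root of F). CPM is the count divided by the TMM-scaled library size, at the usual CPM scale. The script was tested on simulated data. No 2 libraries of a group were alike within sampling noise.

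Alternatives tried were library size alone, size factors of DESeq2 in edgeR, DESeq2 1.42.0 itself, no filter or a stricter one, the replicate block, 1 fit of all groups, limma 3.58.1 on log2(FPKM + 1) or log2(FPKM + 0.1) for genes with at least 1 FPKM, and leaving out each library. Counts of non-overlapping genes without a library were chosen after seeing the data. The genes, lists and tests were chosen with earlier results of these data known. Named pathway genes were, per list and tissue, up to 3 with the largest absolute log2 fold change among those called whose higher group averaged at least 1 CPM, or in fat, where none was called, among those with an unadjusted p under 0.05 and no overlap; 1 gene that this rule names is not reported here. Likeness was computed for genes averaging 5 CPM or more. Marker lists also covered bile duct cells, mesothelium, platelets, lymphocytes, skeletal muscle and skin epithelium, whose sums stand in the closing section.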

Additional observations from a re-analysis of the deposited data

Results flagged for a closer look

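Fibronectin (Fn1) in halofuginone liver replicate 2 measured 2855.5 CPM, and the next highest of the 5 treated livers measured 1655.1 CPM. The gap was 0.863 of the group's whole range, above the critical value of 0.71 that Dixon's test sets for 5 samples. The test was made on 20 groups (10 genes in both liver groups), of which about 1 would pass by chance. The sum of the 10 genes was 3134.1 CPM in this library, against 1737.7 to 1942.9 CPM in the other treated livers. Most of the 3134.1 CPM was the flagged Fn1 value itself, so the sum is not a separate observation. Of the 10 genes, 7 lay below the vehicle range in this library and 1, Fn1, lay above it. Summed hepatocyte markers in the same library were 62901.5 CPM, within the treated range of 49878.3 to 119692.9 CPM.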

How the results depend on the processing

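Sparc, Tnc and Thbs1 kept their direction and call in liver in every alternative run, and the 10 genes did so between vehicle fat and vehicle liver. Of the 5 liver calls, 3 remained in 1 fit of all groups (Sparc, Tnc and Thbs1, of 980 genes called lower), and 2 and 2 of 6 tested on FPKM with a pseudocount of 1 and 0.1 (of 811 and 817 genes called lower). All liver calls numbered 1275 to 5312 when 1 library was left out, with 5312 without halofuginone replicate 1, and they moved by over 1.5 times without halofuginone replicates 3, 4 and 5 and vehicle replicates 2, 4 and 5. Without halofuginone replicate 1, 5 liver genes of the 10 had no overlap (16.1% of all genes). In fat, 1 fit of all groups called 334 genes (3 of the 10), DESeq2 671 (6 of the 10) and the fit without a filter 1, and leaving out 1 library gave 0 to 1, the 1 without vehicle replicate 3. For the tissue contrast DESeq2 called 685 genes (2 of the 10). Leaving out 1 library gave 34 to 1053 genes and 0 to 1 of the 10, and the count stayed within 1.5 times of 141 only without halofuginone liver replicate 2, halofuginone fat replicate 3 or vehicle fat replicate 2. Signs changed for liver Fn1 (0.09 with library size alone, 0.04 and 0.04 on FPKM, and −0.30 to 0.0035 with 1 library left out), for fat Thbs1 (−0.15 to 0.48) and for the Postn contrast (−1.12 to 0.28). Apart from what the alternative itself removes, the cause was not tested.

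With the replicate block, 4 of the 10 were called in liver (Bgn lost, adjusted p = 0.0884), of 1901 genes called and 1011 called lower, and 0 in fat, where no gene was called by edgeR (1282 at an unadjusted p under 0.05; DESeq2 was run without the block only). Same-numbered libraries correlated at −0.156 to 0.0566 in liver and −0.57 to 0.111 in fat, so the numbers were not taken to pair samples. Depth limits Tnc, Thbs1 and Fmod in liver.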

Other observations

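Markers of other cell types gave these sums. In fat, bile duct markers measured 887 CPM in vehicle replicate 3 and 95.2 to 282 CPM in the other libraries, and skeletal muscle markers 100 to 184 CPM in vehicle and 61.7 to 71.6 CPM under halofuginone. Most of that muscle sum was Acta1 (118 CPM on average in vehicle fat and 48.9 CPM in treated fat). It was the only 1 of 7 muscle markers lower at an unadjusted edgeR p under 0.05, and Myl1 measured 10.7 and 10.2 CPM. Platelet markers, relevant to Thbs1 as a platelet granule protein, measured 1.49 to 2.6 CPM in vehicle and 1.85 to 2.76 CPM in treated liver, and 22 to 27.1 CPM and 16 to 20 CPM in fat. In fat most of that sum was Pf4 (20 CPM on average in vehicle and 12.6 CPM under halofuginone). Ppbp went the other way (0.443 and 1.75 CPM), and Itga2b measured 2.43 and 2.41 CPM. Lymphocyte markers were 1.8 to 4.04 CPM in vehicle liver and 11.2 CPM in halofuginone liver replicate 1, against 1.34 to 2.55 CPM in the other treated livers. Mesothelial markers overlapped between the groups in fat (29.3 to 168 and 8.55 to 138 CPM). In liver their sum (278 to 542 and 201 to 639 CPM) was nearly all Krt8 (206 and 155 CPM on average) and Krt18 (153 and 301 CPM), keratins that hepatocytes also express. Krt18 was called higher (log2 fold change 0.98, edgeR adjusted p = 0.043), and Msln, Upk3b, Lrrn4, Wt1, Upk1b and Krt19 averaged below 1 CPM in both groups. Skin and mammary markers were below 1 CPM in every liver library and 1.17 to 27.2 CPM in fat. Smooth muscle markers overlapped in fat (326 to 937 and 493 to 716 CPM), as did endothelial markers in liver (354 to 400 and 338 to 423 CPM), bile duct markers in liver (51.2 to 68.3 and 36.1 to 64.7 CPM) and lymphocyte markers in fat (33.2 to 57.8 and 18.6 to 56.9 CPM). Of the 10 endothelial markers tested in liver, 3 were called lower by edgeR, namely Pecam1 (−0.34), Cdh5 (−0.40) and Lyve1 (−0.82). Another 2 were called higher, Kdr (0.47) and Clec4g (0.33). Of all genes tested in liver 23.2% were called and 10.5% were called lower. In liver, skeletal muscle markers reached at most 0.347 CPM and epididymis markers at most 0.361 CPM.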
